A study of Mus musculus with 24 samples.

Results

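4930568G15Rik is a long intergenic noncoding RNA gene, 1 of 33902 genes with a row in the snRNA-seq table, and it was selected on its large difference between mouse strains in Exc-DG, the excitatory neurons of the dentate gyrus. Its values were followed through every excitatory and non-neuronal cell type used here, together with the 10 snATAC-seq peaks, of 300819 in all, that lay over the gene or within 10 kb of either end. The study profiled the ventral hippocampus of adult male inbred mice aged 10 to 16 weeks, with tissue from about 2 animals pooled into each replicate. The 2 strains compared were C57BL/6J (B6) and DBA/2J (D2), each with 2 snRNA-seq and 2 snATAC-seq libraries, numbered 2 and 3. The labels name no transgene and no treatment for either strain, and nuclei for snRNA-seq were sorted on NeuN to enrich for neurons.

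A long intergenic noncoding RNA is transcribed and spliced like a messenger RNA but has no recognised protein product, and it lies between protein-coding genes. Many such transcripts are kept in the nucleus, so that sequencing of nuclei captures them well, including their unspliced form. Open chromatin, which snATAC-seq measures by counting insertions of a transposase, marks promoters and distal elements that can be bound by transcription factors. Granule neurons of the dentate gyrus are the first relay of the hippocampal circuit, and they project to CA3.

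On GRCm38 (mm10), 4930568G15Rik (ENSMUSG00000102408.1) occupied 27905 bp on the minus strand at chr1:165064024-165091928. GENCODE listed a long transcript of 5 exons that begins at position 165091928 and a short transcript of 2 exons that begins at 165068114, close to the shared 3′ exons. No other GENCODE gene model overlapped it. Whether one did in the annotation used for counting is not given in the sources used here. Reference sequence is shown for the promoter and for the peaks that differed most between the strains, written 5′ to 3′ on the minus strand, the strand of the gene. It is B6 reference sequence, since D2 sequence was not used here.

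The first is the promoter from RefSeq (GRCm38.p6, chr1:165091881-165092180), 250 bases before and 50 bases after the RefSeq start site, with GC boxes, the cAMP response element and the X-box in capitals.
Promoter: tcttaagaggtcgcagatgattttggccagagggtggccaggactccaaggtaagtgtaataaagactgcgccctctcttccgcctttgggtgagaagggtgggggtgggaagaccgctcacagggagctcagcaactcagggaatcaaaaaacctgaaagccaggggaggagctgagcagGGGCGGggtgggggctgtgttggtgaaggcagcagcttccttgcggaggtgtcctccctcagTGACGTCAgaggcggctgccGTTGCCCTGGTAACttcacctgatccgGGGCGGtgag
The second is the whole 232 bp peak upstream of the start (GRCm38, chr1:165094958-165095189), with CpG dinucleotides in capitals.
Upstream peak: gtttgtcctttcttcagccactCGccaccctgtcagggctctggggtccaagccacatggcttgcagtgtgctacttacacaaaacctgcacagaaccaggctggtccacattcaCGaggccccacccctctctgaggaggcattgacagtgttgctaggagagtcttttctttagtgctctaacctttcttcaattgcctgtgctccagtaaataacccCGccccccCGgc
The third is the middle 201 bp of the peak just past the 3′ end of the gene (GRCm38, chr1:165062938-165063138), again with CpG dinucleotides in capitals.
Peak past the 3′ end: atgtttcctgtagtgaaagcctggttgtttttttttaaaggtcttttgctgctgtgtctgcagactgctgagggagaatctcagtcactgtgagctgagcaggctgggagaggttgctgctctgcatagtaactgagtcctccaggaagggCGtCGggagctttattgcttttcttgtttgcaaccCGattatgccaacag

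Counting the first transcribed base of the RefSeq model as 1 and the base before it as -1, the promoter held the palindrome TGACGTCA from -7 to 1. This is the cAMP response element, the binding motif of the CREB family, and 1.79% of 32851 RefSeq mouse promoters of the same length held it on either strand. An X-box, the motif of RFX factors, searched on both strands as GTTGCC and GGNAAC with 2 bases between them, lay from 14 to 27, and 0.298% of the promoters held one. GC boxes (GGGCGG or its complement), the motif of Sp factors, lay from -69 to -64 and from 41 to 46, and 35.7% of promoters had at least one. An E-box of the form CAGATG lay from -237 to -232, as 17.2% of promoters had. The AP-1 motif TGANTCA and the E-box CAGCTG had no match in this window, against 7.81% and 16.3% of promoters that had one. None of the motifs overlapped another, and each match is a description of the letters and not evidence of binding.

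The upstream peak held 1 GC box, which 6.25% of windows of that length centred on the 300776 peaks on GRCm38 chromosomes also held, and none of the other 5 motifs. The whole 1289 bp peak past the 3′ end likewise held 1 GC box and no other motif searched, and 39.7% of its bases were repeat-masked in the reference. CpG density, the sequence feature at the centre of the study, was 36.7 CpG per kb in the promoter window and 22.2 in the promoter peak, against a median of 10.5 over all peaks, of which 14.2% were denser than the promoter peak. The study counted CpG density in segments of fixed length, so values over this window or whole peaks are not on its scale. The upstream peak had 17.2 CpG per kb and the peak past the 3′ end 9.31. The remaining peaks at the gene ranged from 4.87 CpG per kb at an intronic peak to 16.3 at another.

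Total counts per Exc-DG column ran from 7895793 to 11352265 for snRNA-seq and from 18111758 to 27815541 for snATAC-seq. Exc-DG carried the defining genes of its label. Prox1, the transcription factor of granule neurons, stood at 278 CPM (counts of the gene per 1000000 counts of the column) over both strains, against 1.78 to 3.5 in the other excitatory types, C1ql2 at 27.7 against 1.41 to 4.85, and the desmosomal gene Dsp at 26.5 against 0 to 0.392. All 3 CA1 markers peaked in a CA1 type, 2 of 3 CA3 markers in Exc-CA3, both neuronal and both excitatory markers in an excitatory type, and all 3 markers of each of the 5 non-neuronal types in that type. The CA1 types did not share all CA1 markers. Fibcd1 was at 66.4 CPM in Exc-CA1-Galntl6, 42.8 in Exc-CA1-Camk2d and 7.44 in Exc-CA1-Fras1, and Wfs1 at 7.17, 38.5 and 3.62. Mpped1 was at 185, 207 and 209, but also at 166 in Exc-Cdh12 and 164 in Exc-ENT. Not every listed marker went with the label of Exc-DG. The excitatory marker Neurod6 was lowest there, at 5.06 CPM against 8.16 to 142 in the other types, while Slc17a7 was at 313. The CA3 marker Cpne4 stood at 290 CPM in Exc-DG, against 612 in Exc-CA3. Of the genes that mark inhibitory neurons and Cajal-Retzius cells, Gad2 and Slc32a1 were at 2.35 and 1.73 CPM in Exc-DG and Lhx1 at 0, while Gad1 was at 32 and the CGE marker Adarb2 at 1059.

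The sets of symbols with counts differed between the strains, which touches every comparison of RNA here. In Exc-DG 6988 symbols were counted only in D2 libraries, with 3.43% of all D2 counts, and 1541 only in B6 libraries, with 0.721% of all B6 counts. Of 2432 symbols of the class TEC, gene models still awaiting experimental evidence, 0 had a count in B6 and 2115 in D2. The same split held for processed pseudogenes, with 0 of 2683 counted in B6 and 1921 in D2. The class of 4930568G15Rik did not show it, with 2620 of 3512 lincRNA symbols counted in B6 and 2579 in D2, and the gene itself had counts in all 4 libraries. Whether its exon and intron boundaries were the same in the annotation used for each strain is not given in the sources used here.

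In Exc-DG the RNA of 4930568G15Rik was abundant in D2 and nearly missing in B6. The B6 libraries held 13 and 22 counts and the D2 libraries 404 and 384. After TMM normalization these were 1.27 and 1.95 CPM in B6, a mean of 1.61 ± 0.481 (SD, n = 2), and 45.1 and 47.8 CPM in D2, a mean of 46.5 ± 1.91 (SD, n = 2). The groups lay far apart. The edgeR estimate of the difference, D2 minus B6, was 4.83 on the log2 scale (SE 0.18), a 28.4-fold higher level in D2, and it is given with no test because it is the value that chose the gene. Of 15714 tested transcripts with counts in all 4 libraries, 4 had a larger fold in the direction of D2, and of the 741 lincRNA genes among them 0 did. Counting both directions, 28 of the 15714 had a larger absolute log2 difference. For scale, the median was 0.01 over those transcripts and 0.09 over those lincRNA genes. In that fit 22.2% of the 17723 transcripts tested were called higher in D2 and 13.8% lower, at an adjusted p under 0.05. The first share includes symbols with counts in D2 libraries alone, and among transcripts with counts in all 4 libraries the shares were 13.1% and 14.7%.

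The other cell types came from the same libraries but from nuclei whose values did not choose the gene. Like those of Exc-DG, their columns could be placed in a strain but not tied to single samples. Only the Exc-DG columns were treated as replicates here, by choice, and the other types are given as the authors' deposited sums per column, with intervals that cover counting error only and no test. The inhibitory and Cajal-Retzius types were not analysed here, so that orders of cell types hold within 13 of the 17 types in the snRNA-seq table. CPM here is relative to the column's own total. Column totals ran from 225029 to 8129068, and the number of nuclei behind them is given where it matters, since the number of nuclei and the RNA in each cannot be told apart from a sum alone.

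Every excitatory type showed the same direction. Exc-CA1-Galntl6, a CA1 type named for a marker gene, had 2.21 and 2.84 CPM in B6 and 36.1 and 40.5 in D2. Exc-CA3, the pyramidal neurons that granule neurons project to, had 2.5 and 2.21 CPM in B6 and 33.1 and 35.9 in D2. These were the levels nearest to the 44.9 and 48.6 CPM of Exc-DG in D2 on the same scale. Exc-CA1-Camk2d had 3.76 and 1.12 CPM in B6 against 29.8 and 28.9 in D2. Exc-CA1-Fras1 had the highest summed B6 level of the 13 types, with 3.93 and 5.08 CPM by library, against 27.2 and 27.4 in D2. In both the D2 columns lay well clear of the B6 columns. Exc-ENT had 2.84 and 0.633 CPM in B6 and 19.2 and 25.9 in D2. Exc-Cdh12, the smallest excitatory type, had 1.9 and 4.58 CPM in B6, from 1 and 5 counts, and 13.7 and 20.6 in D2. Exc-Gpc6 had 0.533 and 2.51 CPM in B6 and 11.5 and 6.82 in D2. In all 7 excitatory types other than Exc-DG, both D2 columns lay above both B6 columns, with no overlap. These columns come from the same libraries, so the 7 types are not independent of one another. The share of all transcripts whose columns separate in this way is not given here.

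**Figure D1:**
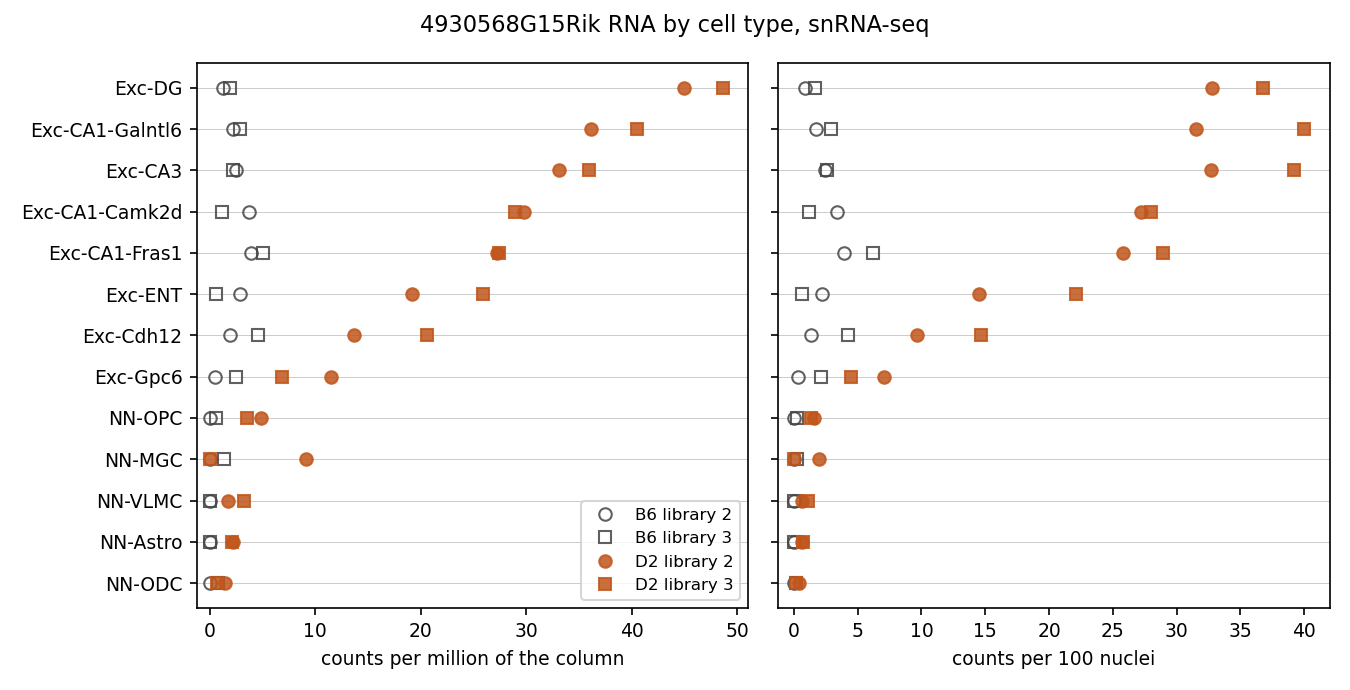
RNA of 4930568G15Rik in 13 cell types, each point 1 column (a cell type in 1 library), B6 open and D2 filled, as CPM of the column (left) and as counts per 100 nuclei (right), with types ordered by their summed D2 CPM. D2 lies above B6 in every excitatory type, and Exc-DG leads on the left but not on the right, where Exc-CA1-Galntl6 and Exc-CA3 reach 40 and 39.2 in a D2 library.

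Summed over those 7 types, B6 had 151 counts, 2.67 and 2.48 CPM by library, and D2 had 1474 counts, 27.8 and 30.9 CPM. The ratio of D2 to B6 was 11.3 (95% counting interval 9.55 to 13.4). By type the ratio ran from 4.38 (1.82 to 12.8) in Exc-Cdh12 to 15.2 (10.9 to 21.6) in Exc-CA1-Galntl6, beside 29 (20.7 to 42) in Exc-DG. The interval of Exc-DG lay above those of Exc-CA1-Fras1, at 6.12 (4.31 to 8.9), Exc-Cdh12 and Exc-Gpc6, at 5.93 (2.62 to 15.7), and overlapped those of Exc-CA1-Galntl6, Exc-CA3, Exc-CA1-Camk2d and Exc-ENT. The difference in ratio between cell types was not tested, and Exc-DG is the type in which the gene was picked.

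In D2 the order of summed CPM was Exc-DG, Exc-CA1-Galntl6, Exc-CA3, Exc-CA1-Camk2d, Exc-CA1-Fras1, Exc-ENT, Exc-Cdh12 and Exc-Gpc6, followed by the non-neuronal types. Neighbours in that order had non-overlapping libraries in 8 of 12 pairs, and the exception among excitatory types was Exc-ENT beside Exc-Cdh12. In B6 the order was another one, with Exc-CA1-Fras1 first at 4.46 CPM and Exc-DG last of the excitatory types at 1.6, although each of those B6 values rested on 39 counts or fewer. Counted per nucleus, the lead of Exc-DG in D2 was gone: 34.6 counts per 100 nuclei in Exc-DG (2276 nuclei), 35.1 in Exc-CA1-Galntl6 (1386 nuclei) and 35.4 in Exc-CA3 (955 nuclei). Exc-Gpc6, with 6.14 counts per 100 nuclei from 619 nuclei, remained the lowest excitatory type on both scales.

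The non-neuronal types carried little of the RNA. Over the 5 types, B6 had 0 and 4 counts by library from 5596 nuclei and D2 had 21 and 15 counts from 4756 nuclei, or 0.254 against 2.44 CPM. The ratio was 9.6 (95% counting interval 3.44 to 37.1). NN-Astro, the astrocytes, had 0 counts in either B6 library and 8 in each D2 library, at least 4.57-fold higher in D2 when 3 counts over both B6 libraries are taken as the floor. NN-OPC, the oligodendrocyte precursors, had 0 and 1 count in B6 and 6 and 5 in D2. NN-ODC, the oligodendrocytes, had 0 and 2 counts in B6 and 2 and 1 in D2, which overlap. In NN-MGC, the microglia, 0 and 1 count in B6 stood beside 4 and 0 in D2, and in NN-VLMC, the vascular and leptomeningeal cells, 0 and 0 beside 1 and 1, so that no difference was detectable at this depth in either.

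Free RNA in a droplet can give counts in nuclei that do not express a gene, and genes of known cell type gauge it. In D2 the gene's CPM in the other excitatory types was 20.9% to 81.7% of that in Exc-DG. Over the same types Prox1 was at 0.508% to 1.4% of its Exc-DG level and Dsp at 0% to 1.84%, while C1ql2 was at 4.07% to 24.6%. The gene's share in those types was thus above the share of Prox1 and Dsp in each of them. In the non-neuronal types the gene was at 2.24% to 8.9% of Exc-DG, and Slc17a7, the vesicular glutamate transporter that excitatory neurons express and glia should lack, was at 11.4% to 19.4%. Dsp gave another answer, at 1.81% in NN-Astro, 1.67% in NN-OPC, 12.9% in NN-MGC and 0% in NN-ODC and NN-VLMC, from 3 counts or fewer in each. C1ql2 was at 10.5% to 48.6% in these types, and Prox1 at 4.61% to 80.5%, highest in NN-ODC. In D2 Prox1 stood at 193 CPM in NN-ODC and 42.3 in NN-OPC, against 1.22 to 3.35 in the other excitatory types. Prox1 is therefore not used as a gauge in the non-neuronal types. The share of the gene was below those of Slc17a7 and C1ql2 in all 5 types. It was above that of Dsp in 4 of 5. The gauges thus disagree, and whether the non-neuronal counts of 4930568G15Rik came from free RNA was not tested. Those counts are read neither as expression nor as a strain difference.

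The 5 genes whose log2(CPM + 1) followed that of 4930568G15Rik most closely over the 52 columns, of 24195 compared, all had a higher median over the D2 columns than over the B6 columns. They were Gm20324 (Pearson r = 0.92), an antisense gene on chromosome 15, St6galnac1 (0.88), a sialyltransferase gene on chromosome 11, Cfap54 (0.86), a gene of motile cilia on chromosome 10, Vmn2r108 (0.86), a vomeronasal receptor gene on chromosome 17, and Fgf2os (0.85), which is antisense to Fgf2 on chromosome 3. The columns share libraries, so that r is a description. A higher median in D2 follows from how the 5 were chosen, since 4930568G15Rik itself differs between the strains over these columns. St6galnac1 and Vmn2r108 were near the floor, with B6 medians of 0 CPM and D2 medians of 3.56 and 1.68. None of the 5 lies on the chromosome of 4930568G15Rik. Gm20324 had a median of 1.48 CPM over the B6 columns and 44.1 over the D2 columns, and Cfap54 had 24.3 and 156. For 4930568G15Rik the same medians were 1.29 and 16.4 CPM.

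Chromatin at the gene was measured in other nuclei and other libraries, and it took no part in the choice of the gene. Of the 10 peaks, all tested, 5 were more accessible in D2 in Exc-DG, 0 were less accessible and 5 did not pass the test (edgeR quasi-likelihood test, adjusted p under 0.05 over 297387 peaks). Across all peaks tested 3.39% were called higher in D2 and 2.58% lower. The median log2 difference was 0.48 over the 10 peaks and 0.00 over all peaks. The differences at the peaks were far smaller than the 28.4-fold of the RNA.

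The largest difference was at the upstream peak, 3030 bp before the gene's 5′ end. It had 12 and 14 counts in B6 and 59 and 92 in D2, or 0.486 and 0.646 TMM-normalized CPM in B6 and 3.34 in each D2 library. The strains did not overlap, and the log2 difference was 2.56 (SE 0.28, adjusted p = 8.91e-16), 5.9-fold. Among 159205 peaks with a mean of at least 1 CPM, 325 had a larger difference in that direction. It was a weak peak, with a D2 mean of 3.34 CPM against 10.1 at the promoter peak.

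The peak past the 3′ end, chr1:165062394-165063682, began 342 bp beyond the last base of the gene. Its counts were 57 and 55 in B6 and 120 and 213 in D2, which gave 2.31 and 2.54 CPM against 6.78 and 7.73. The log2 difference was 1.60 (SE 0.17, adjusted p = 4.12e-17), 3.03-fold, and the D2 libraries stood clear of both B6 libraries. An intronic peak 19800 bp into the gene, chr1:165071718-165072538, was higher in D2 by 0.65 (SE 0.11, adjusted p = 4.99e-07), from 9.03 and 7.75 CPM to 13.7 and 12.9. These 3 peaks were called under every alternative setting tried.

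The promoter peak, chr1:165091213-165092383, which covers the start site and the first exon, was open in both strains. It held 8.83 and 6.27 CPM in B6 and 9.89 and 10.3 in D2. Its log2 difference of 0.41 (SE 0.12, adjusted p = 0.0176) was not called under every setting. Without B6 library 2 it was 0.69 with an adjusted p of 0.00114, without B6 library 3 it was 0.19 with an adjusted p of 0.607, without D2 library 3 the adjusted p was 0.18, and DESeq2 gave an adjusted p of 0.6. A broad intronic peak, chr1:165082781-165084962, had 11.3 and 11 CPM in B6 and 13.6 and 14.4 in D2, a log2 difference of 0.34 (SE 0.10, adjusted p = 0.0187). That call, too, was lost with DESeq2 (adjusted p = 0.515) and when B6 library 2, B6 library 3 or D2 library 3 was left out (adjusted p = 0.128, 0.164 and 0.235).

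The most accessible peak at the gene, chr1:165075105-165076175 in an intron, was nearly level between the strains. It had 23.4 and 26.6 CPM in B6 and 28.7 and 28.8 in D2, a log2 difference of 0.21 (SE 0.08) that did not pass the test (adjusted p = 0.0872). The other 4 peaks that did not pass were weaker, with differences from -0.04 to 0.63 on the log2 scale, and they included the single peak over an exon near the 3′ end and the outermost upstream peak at 0.324 to 0.509 CPM. At such levels a moderate difference was not detectable.

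**Figure D2:**
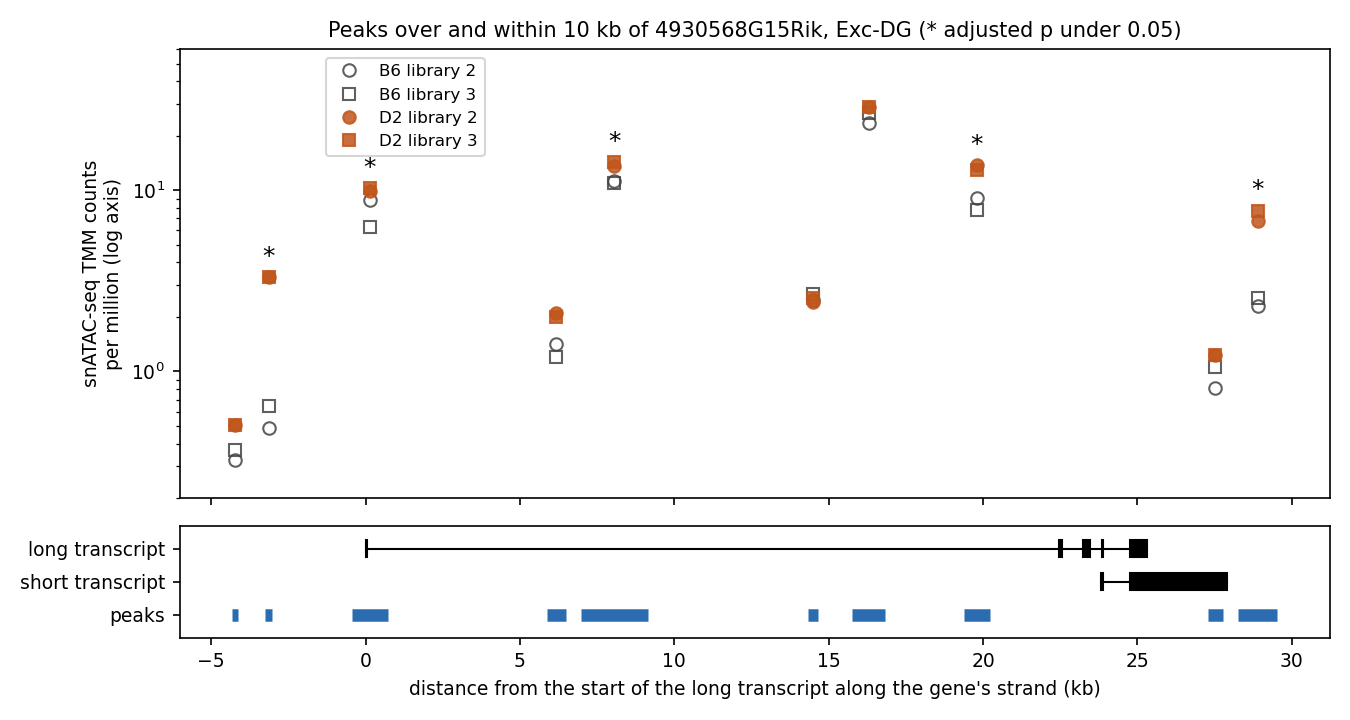
The 10 peaks in Exc-DG, with TMM-normalized CPM on a log axis for each library (B6 open, D2 filled) against the distance of the peak's centre from the start of the long transcript, above a map of the 2 transcripts (boxes are exons) and the peaks to scale. Asterisks mark the 5 peaks called higher in D2, and the peaks at -3145 bp and 28890 bp, outside the gene at either end, show the widest gap between strains.

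In the other 7 excitatory types the peaks did not share one pattern, judged on deposited sums with counting intervals and no test. The peak past the 3′ end was higher in both D2 columns than in both B6 columns in 7 of 7 types. Its summed level was 3.63 and 3.6 CPM in B6 and 6.53 and 7.18 in D2, a ratio of 1.9 (95% counting interval 1.7 to 2.14), beside 2.95 (2.38 to 3.69) in Exc-DG. By type the ratio ran from 1.53 in Exc-ENT to 2.39 in Exc-Cdh12. The intronic peak 19800 bp into the gene had non-overlapping columns in 6 of 7 types, with a summed ratio of 1.55 (1.43 to 1.68). A weaker intronic peak that was not called in Exc-DG, chr1:165085443-165086055, likewise had non-overlapping columns in 6 of 7 types. Its summed ratio was 1.66 (1.38 to 2.01), from 171 counts in B6 and 345 in D2.

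For the upstream peak the columns were separate in 4 of 7 types, and its summed ratio was 2.78 (2.02 to 3.9) from 50 counts in B6 and 169 in D2. It was 6.14 (2.19 to 23.8) in Exc-CA1-Camk2d and 5.15 (2.14 to 15) in Exc-Gpc6, from 4 and 6 B6 counts, beside 5.77 (3.79 to 9.12) in Exc-DG. In Exc-CA1-Fras1 and Exc-ENT it was 1.07 (0.432 to 2.81) and 1.24 (0.393 to 4.22), from 14 and 9 D2 counts. Exc-Cdh12, 1 of the 4 types with separate columns, had 2 counts in B6 and 6 in D2. Whether the ratio differed between types was not tested, and the share of all peaks whose columns separate in this way is not given here.

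The promoter peak, in contrast to the RNA, was not higher in D2 outside Exc-DG. Its summed level over the 7 types was 10.5 and 12.5 CPM in B6 and 11.1 and 10.8 in D2, a ratio of 0.945 (0.879 to 1.02), and both D2 columns exceeded both B6 columns in 1 of 7 types. By type the ratio ran from 0.82 (0.681 to 0.986) in Exc-CA3 to 1.12 (0.942 to 1.33) in Exc-CA1-Galntl6. The RNA of these same types was 14.5-fold and 15.2-fold higher in D2. The promoter peak lies at the start of the long transcript, and no peak covered the start of the short one. Counts per gene do not tell which start the RNA came from. Of the 8 excitatory types Exc-Gpc6 had the most open promoter peak, with 25.6 CPM for B6 and 21.7 for D2, yet the lowest RNA level of the excitatory types in D2. The outermost upstream peak, chr1:165096052-165096260, was lower in D2 when summed, with 0.868 and 0.931 CPM in B6 and 0.536 and 0.552 in D2 over the 7 types, a ratio of 0.604 (0.447 to 0.814). It was 0.281 (0.123 to 0.592) in Exc-CA3 and 0.316 (0.14 to 0.67) in Exc-CA1-Fras1, against 1.43 (0.722 to 2.89) in Exc-DG, where the test did not call it. The counts at the peaks of the inhibitory and non-neuronal types were not used here.

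**Figure D3:**
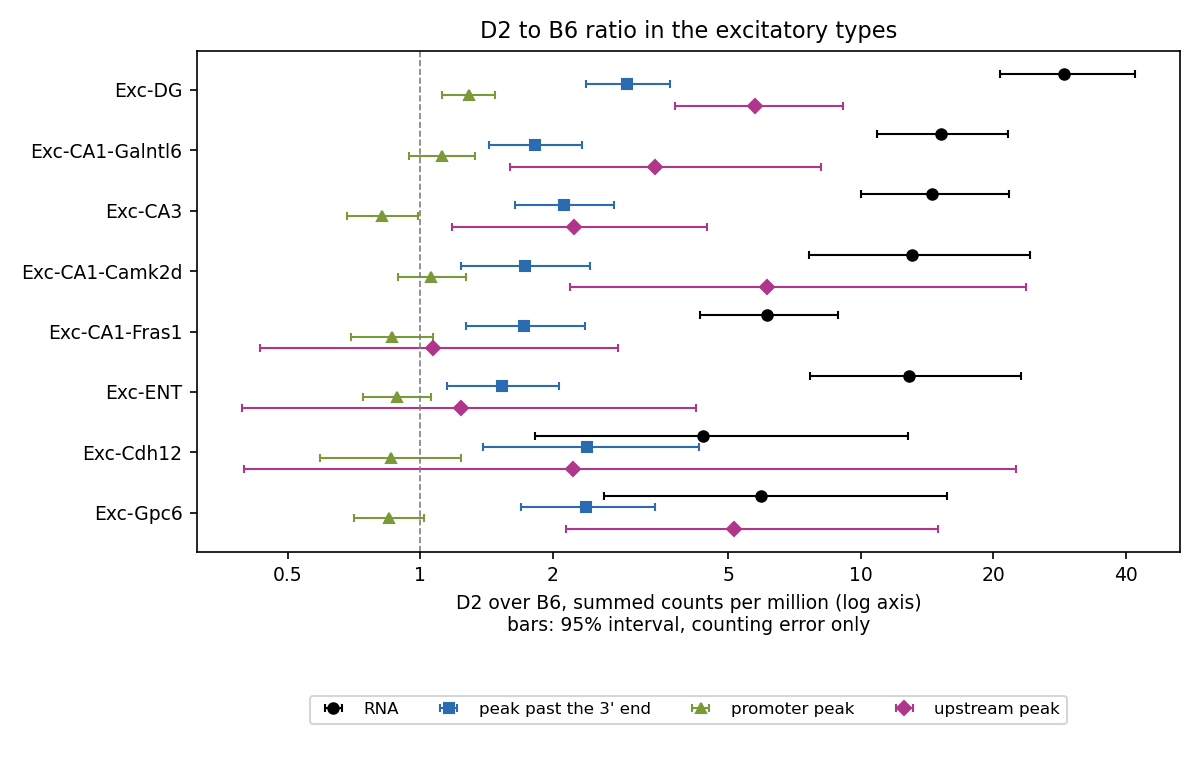
Ratio of D2 to B6 summed CPM on a log axis for the RNA of 4930568G15Rik and for 3 of its peaks in the 8 excitatory types, with bars giving 95% intervals that cover counting error only and a dashed line at a ratio of 1. RNA ratios lie from 4.38 to 29, those of the peak past the 3′ end from 1.53 to 2.95, and those of the promoter peak from 0.82 to 1.29 on both sides of the line.

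The genes around 4930568G15Rik were compared in the same Exc-DG fit. Of 30 annotated genes within 500 kb, 22 had a row in the table and 15 could be tested in Exc-DG, of which 4 were higher in D2, 4 lower and 7 did not pass (22.2% and 13.8% of all transcripts tested were called higher and lower). Of the 4 called higher, 3 (Gm38368, D630023O14Rik and Gm37860) are TEC models with 0 counts in B6, a class with 0 counts in B6 throughout Exc-DG, so that no strain difference can be read from them. The median log2 difference was 0.14 over the 15 genes and 0.06 over all transcripts tested. Both medians include models counted in D2 alone, so no direction is read from them. Of the tested neighbours with counts in both strains, Tiprl alone was called higher and 4 were called lower. Log2 differences of those neighbours ran from -1.84 to 1.14. Among all tested transcripts with counts in all 4 libraries, 13.1% were called higher and 14.7% lower, with a median of 0.01. The nearest gene on the upstream side, Tbx19, a T-box factor of pituitary cells, began 45.9 kb away and had 1 count in all 4 libraries together. On the other side the nearest, the miRNA gene Gm26042 at 39.6 kb, had no row in the table.

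The gene called higher with counts in both strains was Tiprl, a regulator of TOR signalling 120 kb upstream, with 28.3 and 25.8 CPM in B6 and 41.5 and 48 in D2, a log2 difference of 0.72 (SE 0.11, edgeR adjusted p = 8.88e-05). Adcy10, which encodes the soluble adenylyl cyclase that makes cAMP in response to bicarbonate, lay 393 kb away on the same side. It fell by 1.84 on the log2 scale (SE 0.09, adjusted p = 1.38e-09), from 89.7 and 84.9 CPM in B6 to 24.8 and 23.9 in D2. Dcaf6, a subunit of a ubiquitin ligase, went from 245 and 252 CPM to 186 and 171, a log2 difference of -0.48 (SE 0.07, adjusted p = 8.05e-05). Mpc2, part of the mitochondrial pyruvate carrier, went from 65.9 and 66.5 CPM to 51.7 and 52.7, a difference of -0.34 (SE 0.08, adjusted p = 0.00506). The ciliary receptor gene Gpr161, with 5.65 and 5.04 CPM in B6 and 2.79 and 3.24 in D2, had -0.82 (SE 0.24, adjusted p = 0.0167). That call was lost with DESeq2 (adjusted p = 0.233) and without B6 library 2 or D2 library 2 (adjusted p = 0.0622 and 0.0985).

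**Figure D4:**
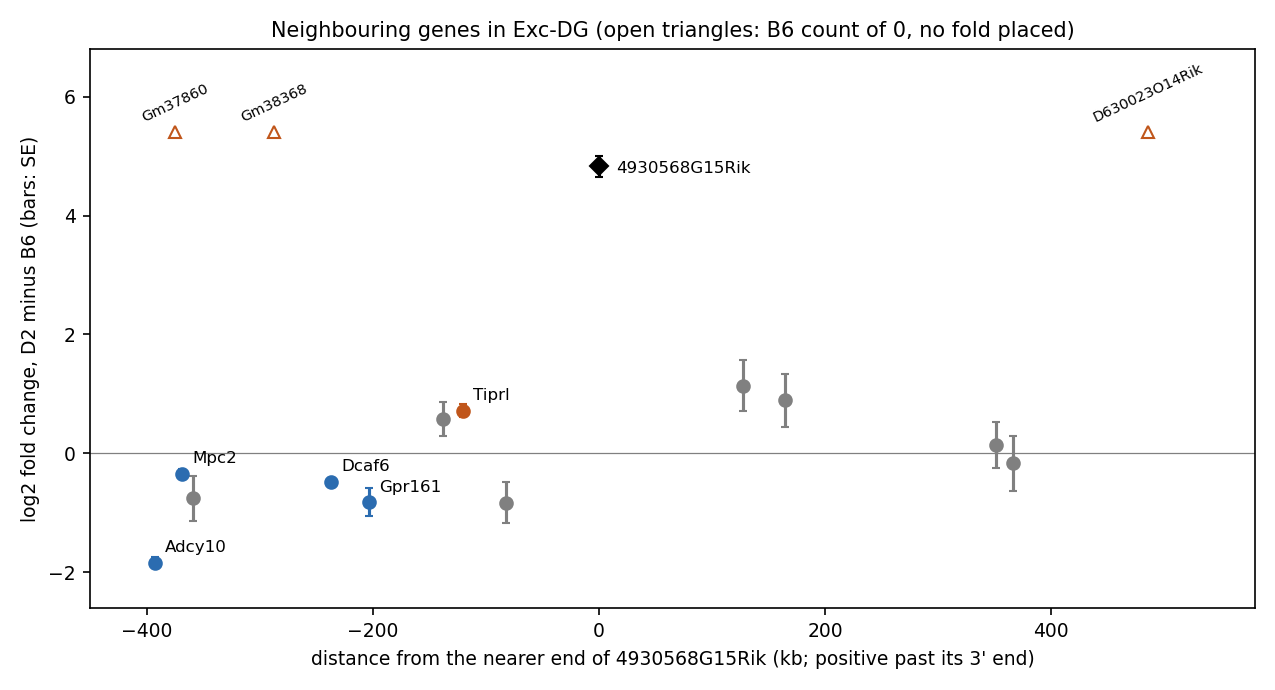
Log2 difference, D2 minus B6, in Exc-DG for 4930568G15Rik (diamond, the value that chose it) and the 12 tested neighbours with counts in both strains (circles, coloured where called), with bars giving the SE, against distance in kb from the nearer end of the gene. The neighbours lie between -1.84 and 1.14, on both sides of 0, and open triangles mark the 3 genes with 0 counts in B6, whose height carries no value.

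Chromatin differences in the same 500 kb, a window added after the values were seen, went both ways. Of 215 peaks tested, 20 (9.3%) were higher in D2 and 18 (8.37%) lower, against 3.39% and 2.58% of all peaks. Their median log2 difference was 0.01.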

How the data were processed

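Per the study's methods, snRNA-seq reads were mapped with Cell Ranger 6.0.2 (intronic reads kept) and those of snATAC-seq with Cell Ranger ATAC 2.0.0, to mm10 for B6 and to mm10 carrying D2 single-nucleotide variants for D2. How that mapping touches this gene was not tested. Nuclei called as doublets by DoubletFinder had been removed from both assays by the authors. Peaks were called per sample with MACS and merged. The authors deposited raw counts summed over the nuclei of each cell type and library, and the number of nuclei per sum; these counts were used as deposited.

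For Exc-DG all genes or peaks were fitted together with edgeR 4.0.16 (R 4.3.3) after TMM normalization, using the quasi-likelihood test and Benjamini-Hochberg adjustment, on 17723 transcripts that passed filterByExpr and 297387 peaks with at least 10 counts over the 4 libraries. Alternatives were DESeq2 1.42.0, RLE normalization, another filter, a block for the library number and leaving out each library. All columns, numbered 2 and 3 where the labels number replicates 1 and 2, were placed in a strain only. The 2 columns per strain of Exc-DG were taken as its 2 replicates. Columns of other types were used as deposited sums, a choice made here that the files do not force, so the tests planned for them were not run and ratios of sums with exact 95% intervals are given instead. Not used were 16 RNA columns (inhibitory and Cajal-Retzius types) and 28 snATAC-seq columns (inhibitory and non-neuronal types). Methylation was not analysed here. Each replicate was a pool of about 2 animals, and 2 libraries a group limit every test.

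Positions are on GRCm38 with GENCODE release M21 models; promoters are from RefSeq. Named in the text are this gene, its peaks, neighbours within 500 kb at an adjusted p under 0.05 and a mean of at least 1 CPM, the nearest gene on each side, the 5 genes of highest correlation, and 3 dentate gyrus genes as a gauge of free RNA; cell type labels were checked against lists of marker genes. The gene and these lists were chosen with earlier results of these data known.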

Additional observations from a re-analysis of the deposited data

How the results depend on the processing

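The log2 difference of 4930568G15Rik in Exc-DG lay between 4.56 and 5.18 when a library was left out and between 4.81 and 4.84 under the other settings, the replicate block included (4.84). The number of peaks at the gene called higher in D2, 5 as reported, was 3 with DESeq2 and 3 among the peaks that overlap the gene, and ran from 3 to 5 when a library was left out; within 500 kb, a window added after the data were seen, 20 were higher and 18 lower. Of the neighbours, 1 was higher and 2 lower within 250 kb, against 4 and 4 within 500 kb. Of those 4 called higher, 3 are the TEC models with 0 counts in B6, which leaves Tiprl. Over all transcripts tested, 22.2% were called higher and 13.8% lower. Among those with counts in all 4 libraries the shares were 13.1% and 14.7%. Library numbers did not pair the libraries: deviations of libraries with the same number had a correlation of -0.055 for RNA and 0.05 for snATAC-seq, and with the replicate block the counts were 5 peaks higher, 4 neighbours higher and 4 lower. No result reversed. Tests in cell types other than Exc-DG were not run, under any setting, although the 2 columns per strain would allow them. The promoter peak's log2 difference of 0.41 ran from 0.19 without B6 library 3 to 0.69 without B6 library 2. Low counts limit the B6 values, the non-neuronal types and the upstream peak in the smaller excitatory types.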
